A study of Mus musculus with 4 samples.

Results

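The transcripts described here are those of Bag3, of 7 small heat shock protein genes (Cryab, Hspb1, Hspb2, Hspb3, Hspb6, Hspb7 and Hspb8), of Synpo2 and of Stub1. They were selected as the 10 of 51826 rows of the expected count table whose gene symbol is one of these names, and all 10 passed the filter on low counts. The list was chosen by the measured difference between WT and Mef2dα2 Eko quadriceps, the log2 fold changes over the same 4 libraries, so the levels of these genes in the 2 genotypes are a description, and the calls of the fit across all genes are given as counts beside the share of all genes called.

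The study asked how quadriceps RNA differs when the muscle-specific α2 exon of Mef2d, a transcription factor of the MEF2 family, is missing. PolyA RNA was sequenced from 2 WT and 2 Mef2dα2 Eko male mice, with 1 library per mouse. All 4 mice were sedentary, about 20 weeks old, fed standard chow, and on the C57BL6/J background, and the study describes the genotypes as littermates. The exon was deleted in the germline with CRISPR-Cas9, so it was missing from every tissue and not from muscle alone, and the founder line of the sequenced mice is not stated in the labels.

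BAG3 is a co-chaperone that holds HSP70 with one domain and small heat shock proteins with short motifs, and so joins the chaperones that keep damaged proteins soluble to those that hand them on. At the Z-disc of striated muscle this complex recognises mechanically damaged filamin, the ubiquitin ligase CHIP (the product of Stub1) tags it, and synaptopodin-2 (the product of Synpo2) connects the loaded complex to the forming autophagosome. Small heat shock proteins are ATP-independent chaperones that share an α-crystallin domain, form large oligomers, and are abundant in skeletal muscle and heart, where loss or mutation of BAG3, αB-crystallin and HSPB8 is known to cause myopathy.

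Total expected counts were between 72626757 and 85176059 per library, and 3 counts, taken as the floor, corresponded to between 0.0348 and 0.0419 CPM (counts scaled to the size of the library), which covers counting error only. The 8 myofibre markers summed to between 130931 and 138249 CPM in the 4 libraries, a sum to which Myh4 gave the most. Of the 47 marker genes of 8 lists, 0 passed the threshold of edgeR's test, while DESeq2 called 5, beside 1.97% of all genes. These were Myh1, Myh2, Mb and the fibroblast marker Col3a1, lower in Mef2dα2 Eko, and the smooth muscle marker Lmod1, higher. Total Mef2d was 243 ± 22.6 CPM in WT and 246 ± 7.82 CPM in Mef2dα2 Eko (SD, n = 2 each), but a gene count includes every exon and so cannot check the deletion of 1 of them. Over all genes, 67 of 16120 tested passed an adjusted p of 0.05 in the quasi-likelihood test of edgeR, 50 of them lower and 17 higher in Mef2dα2 Eko. In whole muscle, fewer cells of a type and less RNA per cell cannot be told apart.

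Promoter sequences were available for 8 of the 10 genes (RefSeq, GRCm38.p6), and the 250 bases before each start were searched, since this gene family is known for induction by heat shock factor 1 and the altered protein in these mice is a MEF2 factor. A pair of inverted heat shock units, GAANNTTC, was found in 4 of the 8 genes, while the other arrangement of the units, TTCNNGAA, was found in 0 of them. Both motifs read the same on either strand, and 6.69% and 7.17% of 32851 promoters hold them. The MEF2 consensus, searched on both strands, was found in 2 of the 8 genes and in 2.92% of all promoters. None of these 3 motifs was found for Bag3, Hspb7 or Hspb8. A match is a run of letters and not a site shown to be bound.

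The windows with a match are given from 5′ to 3′ on the gene's strand, with the matched letters in capitals. In Hspb1 (chr5:135887769-135887859, + strand) there were 2 heat shock pairs, at 117 and 97 bases before the start. In Hspb6 (chr7:30553151-30553261, + strand) the pair lay 120 bases before the downstream of its 2 listed starts. In Stub1 (chr17:25833024-25833053, − strand) it lay 123 bases before the start listed by RefSeq, inside the first exon of a longer transcript. In Hspb3 (chr13:113663677-113663926, − strand) a heat shock pair lay at 224 bases and a MEF2 consensus at 12 bases before the start, and the latter overlaps a TATAAA box. In Synpo2 (chr3:123236299-123236399, − strand) the MEF2 consensus lay at 236 bases, again overlapping TATAAA, which was read there on the other strand.
Hspb1: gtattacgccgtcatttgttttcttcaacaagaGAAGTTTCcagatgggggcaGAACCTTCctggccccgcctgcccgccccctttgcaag
Hspb6: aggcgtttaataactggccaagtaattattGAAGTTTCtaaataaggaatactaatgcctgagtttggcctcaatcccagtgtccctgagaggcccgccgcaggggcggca
Stub1: agagcgcggcgGAAGCTTCtcagagctaag
Hspb3: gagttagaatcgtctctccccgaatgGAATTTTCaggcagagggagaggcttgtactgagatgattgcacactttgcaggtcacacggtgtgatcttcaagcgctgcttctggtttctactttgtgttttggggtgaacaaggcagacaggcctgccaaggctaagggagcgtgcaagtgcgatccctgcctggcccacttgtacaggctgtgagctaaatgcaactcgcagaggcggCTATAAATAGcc
Synpo2: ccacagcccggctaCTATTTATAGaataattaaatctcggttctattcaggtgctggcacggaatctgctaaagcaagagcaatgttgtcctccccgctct

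Across the 10 genes, 7 had both Mef2dα2 Eko mice below both WT mice, which was true of 23.0% of all genes tested, and 0 had both above, which was true of 20.8%. The log2 fold change of Mef2dα2 Eko against WT was below 0 for 9 of the 10 genes and for 51.3% of all genes. Its median was -0.38 over the 10 genes and -0.01 over all genes tested, and its range was -0.66 to 0.13. In the quasi-likelihood test of edgeR, Bag3 was the 1 of the 10 genes that passed the adjusted p of 0.05, at 0.0480. In that direction 0.310% of all genes passed. Bag3 was called in 7 of the 11 alternative fits to all 4 mice. At an unadjusted p under 0.05 there were 6, all lower in Mef2dα2 Eko, beside 6.41% of all genes in that direction and 11.6% in either. DESeq2 called 5 (Bag3, Cryab, Hspb1, Hspb6 and Hspb8), again all lower, beside 1.15% of all genes lower and 1.97% in either direction. Because the list was chosen with this contrast known, nothing is read from these counts. By size the genes fell into a set with lower levels (Hspb1, Hspb7, Cryab, Hspb6, Bag3 and, by less, Hspb8) and a set between -0.06 and 0.13 on the log2 scale (Hspb2, Synpo2, Stub1 and Hspb3).

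**Figure D1:**
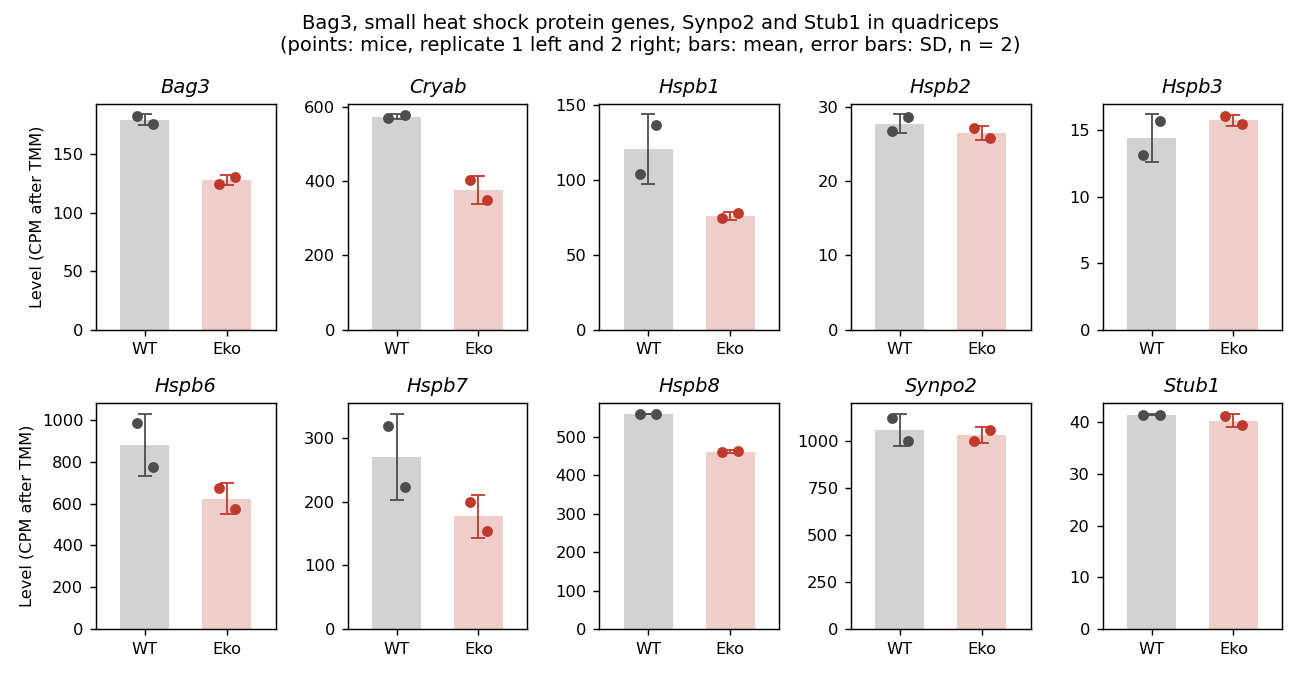
Level of each of the 10 genes in CPM after TMM normalization (y axis, starting at 0) in WT and Mef2dα2 Eko quadriceps, with bars for the mean of 2 mice, error bars for the SD and points for single mice. The points of the genotypes are apart for Bag3, Cryab, Hspb1, Hspb6, Hspb7 and Hspb8, and overlap or nearly touch for Hspb2, Hspb3, Synpo2 and Stub1.

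Bag3 (ENSMUSG00000030847.8, chr7:128523616-128546981, + strand, GRCm38) encodes the co-chaperone itself, in 4 exons. Its level was 183 and 176 CPM in the WT mice and 125 and 131 CPM in the Mef2dα2 Eko mice. The genotypes did not overlap, and the mice of a genotype differed by no more than 0.07 on the log2 scale while the nearest WT and Mef2dα2 Eko mice differed by 0.43. The Mef2dα2 Eko mean was 71.1% of the WT mean, a log2 fold change of -0.49 with a standard error of 0.07.

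Hspb8 (ENSMUSG00000041548.4, chr5:116408491-116422864, − strand) encodes the small heat shock protein that binds BAG3 most stably. It was measured at 561 and 559 CPM in WT and at 460 and 464 CPM in Mef2dα2 Eko. These were the closest pairs of any of the 10 genes, with a difference within each genotype of no more than 0.01 on the log2 scale and a gap between the genotypes of 0.27. The Mef2dα2 Eko mean was 82.6% of the WT mean, beside 71.1% for Bag3, and the difference between the genes was not tested. The log2 fold change was -0.28 (standard error 0.07).

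Cryab (ENSMUSG00000032060.10, chr9:50751325-50756636, + strand) encodes αB-crystallin, which protects desmin and actin filaments. The WT mice had 570 and 578 CPM and the Mef2dα2 Eko mice 403 and 349 CPM. The genotypes were apart by 0.50 on the log2 scale, more than the 0.21 that separated the Mef2dα2 Eko mice from each other. The Mef2dα2 Eko mean was 65.5% of WT, a log2 fold change of -0.61 with a standard error of 0.09.

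Hspb2 (ENSMUSG00000038086.4, chr9:50751078-50752354, − strand) lies head to head with Cryab, with 614 bp between the starts of the first listed transcript of each, and encodes a partner of the myotonic dystrophy kinase. Its level was 26.9 and 28.7 CPM in WT and 27.2 and 25.9 CPM in Mef2dα2 Eko. The genotypes overlapped, and the means differed by less than the spread within WT (log2 fold change -0.06, standard error 0.07). The neighbours thus stood at 65.5% and 95.7% of their WT means. Their annotated exons share 252 bp on opposite strands, all from other transcripts of Cryab that begin farther upstream, and the strand setting of the count is not stated, so reads from that stretch could be credited to either gene.

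Hspb3 (ENSMUSG00000051456.4, chr13:113662896-113663676, − strand), a gene of 1 exon whose product forms oligomers with HSPB2, was the least expressed of the 7. Its level was 13.1 and 15.7 CPM in WT and 16.0 and 15.5 CPM in Mef2dα2 Eko. The genotypes overlapped. It was the gene of the list with a positive log2 fold change, 0.13 with a standard error of 0.10, and the WT mice differed from each other by 0.26.

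Hspb1 (ENSMUSG00000004951.10, chr5:135887919-135889563, + strand) encodes the actin-binding HSP25, known as HSP27 in humans. It was at 104 and 137 CPM in WT and at 74.1 and 77.9 CPM in Mef2dα2 Eko. The genotypes were apart by 0.42 on the log2 scale, about as far as the 0.39 between the WT mice. Its mean in Mef2dα2 Eko was 63.2% of WT, and its log2 fold change, -0.66 (standard error 0.13), was the lowest of the 10 genes, moving between -0.85 without WT replicate 1 and -0.44 without WT replicate 2. The inducible HSP70 genes Hspa1a and Hspa1b were likewise highest in WT replicate 2, as were the slow fibre markers in sum, and the part of either in the Hspb1 values was not tested.

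Hspb6 (ENSMUSG00000036854.14, chr7:30552178-30555443, + strand) encodes HSP20, a target of cyclic nucleotide-dependent kinases, and had the highest CPM of the 7. It was measured at 986 and 774 CPM in WT and at 675 and 573 CPM in Mef2dα2 Eko. The genotypes were apart by 0.20 on the log2 scale, less than the 0.35 between the WT mice, and the log2 fold change of -0.50 (standard error 0.13) became -0.31 without WT replicate 1. Its exons overlap those of Proser3 by 122 bp and of Lin37 by 3 bp, both on the other strand.

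Hspb7 (ENSMUSG00000006221.7, chr4:141420779-141425311, + strand) encodes the cardiovascular small heat shock protein, which binds filamin C. Its level was 318 and 222 CPM in WT and 199.9 and 153 CPM in Mef2dα2 Eko. The gap between the genotypes, 0.15 on the log2 scale, was smaller than the differences within WT (0.52) and within Mef2dα2 Eko (0.38). The log2 fold change was -0.61 with a standard error of 0.18, the widest of the list, and ran from -0.83 without WT replicate 2 to -0.33 without WT replicate 1.

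The mice stood in 1 order, from WT replicate 1 down to Mef2dα2 Eko replicate 2, for Hspb6, Hspb7 and, by far less, Stub1. The myofibre markers Mb and Myh1 and the summed adipocyte and macrophage markers stood in the same order. The slow fibre markers did not, with sums of 415 and 964 CPM in WT and 654 and 419 CPM in Mef2dα2 Eko. The nerve and Schwann cell markers stood in the reverse order in sum. Of the 8 myofibre markers, 4 had a log2 fold change below 0, and Ckm stood at 0.003, Pvalb at 0.14 and Ttn at 0.22. Myoglobin (Mb) had 1430.4 and 1303 CPM in the WT mice and 1050.1 and 884 CPM in Mef2dα2 Eko (log2 fold change -0.50), and Myh1, the myosin heavy chain of type IIx fibres, had 4967 and 3984 CPM against 3476 and 3121 CPM (-0.44). Myh2, the myosin heavy chain of type IIa fibres, was also lower without overlap (-0.51), while Myh4, that of type IIb fibres, was at 0.07. The edgeR adjusted p was 0.156 for Mb, 0.261 for Myh1 and 0.161 for Myh2, DESeq2 called all 3, and the part of fibre type in the members' values was not tested. The 5 adipocyte markers, none of them at 0 in any library, summed to between 30.7 and 80.1 CPM in WT and between 11.2 and 25.8 CPM in Mef2dα2 Eko, and 4 of the 5 had a log2 fold change below 0. The 5 macrophage markers, again with none at 0, summed to between 19.3 and 24.4 CPM in WT and between 13.9 and 19.1 CPM in Mef2dα2 Eko, with 5 of 5 below 0. None of these 10 adipocyte and macrophage markers passed the threshold of edgeR's test, and DESeq2 called 0. An unadjusted p under 0.05 was found for 6 of them, beside 11.6% of all genes. Their part in the Hspb6 and Hspb7 values was not tested. In WT replicate 2 and Mef2dα2 Eko replicate 1, the pair closest in these sums, Hspb7 stood at 222 and 199.9 CPM and Hspb6 at 774 and 675 CPM. Hspb1 stood at 137 and 74.1 CPM, Cryab at 578 and 403 CPM, Hspb8 at 559 and 460 CPM, and Bag3 at 176 and 125 CPM. The same pair differed in the slow fibre sum, 964 and 654 CPM. This sets 1 mouse beside 1 mouse, so no part of a cell type can be read from it.

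Synpo2 (ENSMUSG00000050315.14, chr3:123076519-123236149, − strand), the adaptor to the autophagosome, had 1120 and 1001 CPM in WT and 1001 and 1061 CPM in Mef2dα2 Eko. The genotypes overlapped, and the log2 fold change of -0.04 (standard error 0.08) took either sign when 1 mouse was left out, from -0.11 to 0.04. Stub1 (ENSMUSG00000039615.9, chr17:25830505-25833404, − strand), the ubiquitin ligase CHIP, had 41.5 and 41.4 CPM in WT and 41.3 and 39.4 CPM in Mef2dα2 Eko. The Mef2dα2 Eko mice were below the WT mice, but by a gap of 0.003 on the log2 scale, and the log2 fold change was -0.04 (standard error 0.07). Exons of Stub1 share 1084 bp with those of Jmjd8 on the other strand, so part of either count could belong to the other gene.

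**Figure D2:**
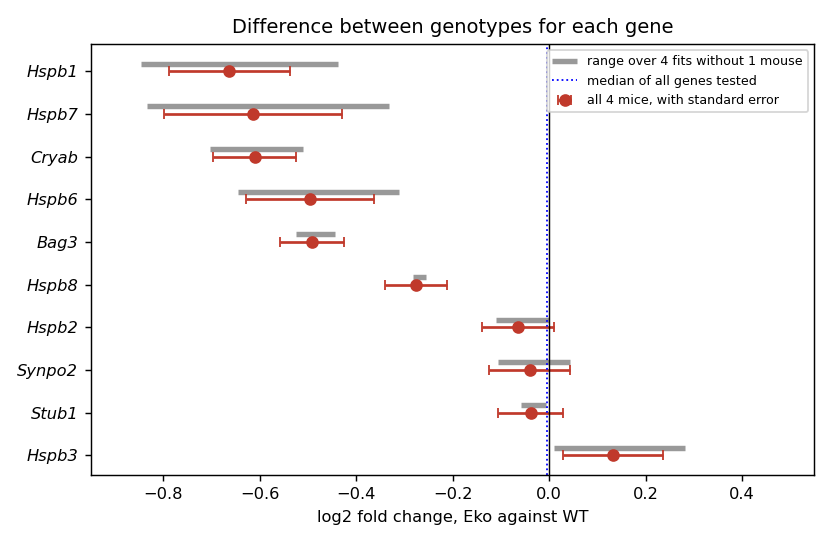
Log2 fold change of Mef2dα2 Eko against WT (x axis) for each gene (y axis), with points for the fit to all 4 mice, red bars for the standard error, grey bars for the range over the 4 fits that leave out 1 mouse, and a dotted line for the median of all genes tested, -0.01. The grey bars of Hspb1, Hspb7, Cryab, Hspb6, Bag3 and Hspb8 lie below 0, that of Hspb3 lies above 0, and that of Synpo2 runs from -0.11 to 0.04.

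The members' median transcript GC content was 55.8%, against 50.2% over the genes tested, and the log2 fold change had a rank correlation of -0.22 with GC across 15636 genes, which are not independent replicates. With GC fitted as an offset, the median of the 10 genes was -0.34 in place of -0.38, Bag3 was at -0.43, and the signs of Hspb2 and Stub1 turned, to 0.02 and 0.06. Over the 11 alternative fits to all 4 mice, Bag3 ranged from -0.50 to -0.43, Cryab from -0.61 to -0.55, Hspb1 from -0.67 to -0.56, Hspb6 from -0.50 to -0.44, Hspb7 from -0.62 to -0.53 and Hspb8 from -0.28 to -0.24.

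Levels between genes were compared per length, in CPM per kb of 1 annotated coding transcript. In WT the order from the highest was Hspb6 (646 ± 110 CPM per kb, SD, n = 2), Cryab (514 ± 5.27), Hspb8 (308 ± 0.492), Synpo2 (150.1 ± 12.0), Hspb1 (133 ± 25.6), Hspb7 (97.6 ± 24.4), Bag3 (70.0 ± 1.81), Hspb2 (35.9 ± 1.66), Stub1 (23.0 ± 0.0586) and Hspb3 (18.4 ± 2.31). The order in Mef2dα2 Eko was the same, from Hspb6 at 458 ± 53.2 CPM per kb, Cryab at 337 ± 34.2 and Hspb8 at 254.6 ± 1.52 down to Bag3 at 49.8 ± 1.64 and Hspb3 at 20.2 ± 0.523. With the transcripts used, neighbours in the order overlapped between mice for Synpo2 and Hspb1 in WT, and for no pair in Mef2dα2 Eko. The Cryab transcript used, of 1117 bp, begins upstream of the others. Cryab transcripts of 946 and 846 bp have the same coding length and would raise its level. Its place beside Hspb6, and the sums and shares below, thus rest on this choice. Thus Hspb6, Cryab and Hspb8 stood above BAG3's own transcript in both genotypes. The 3 least abundant genes of the order, Hspb2, Stub1 and Hspb3, were among the 4 whose level lay closest to WT. The remaining gene of these 4 was Synpo2, which stood higher in the order, at 150.1 CPM per kb in WT.

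The 7 small heat shock protein genes together had 1824 and 1683 CPM per kb in the WT mice and 1320.0 and 1184 CPM per kb in the Mef2dα2 Eko mice. The sums did not overlap, and the Mef2dα2 Eko mean was 71.4% of the WT mean, beside 71.1% for Bag3. Relative to Bag3 the sum was 25.6 and 24.5 in the WT mice, against 27.1 and 23.2 in the Mef2dα2 Eko mice, and this ratio overlapped between the genotypes (25.04 ± 0.778 and 25.2 ± 2.77). As shares of the sum, Hspb6 stood at 36.7% in WT and 36.5% in Mef2dα2 Eko, Hspb1 at 7.65% and 6.75%, and Hspb7 at 5.53% and 5.07%, each with overlap between the genotypes. The share of Cryab was lower in Mef2dα2 Eko without overlap (28.0% and 30.8% in WT, 27.4% and 26.4% in Mef2dα2 Eko). The shares of Hspb8 (16.9% and 18.3% in WT, 19.2% and 21.6% in Mef2dα2 Eko), Hspb2 (1.91% and 2.20%, 2.67% and 2.83%) and Hspb3 (0.920% and 1.19%, 1.56% and 1.67%) did not overlap either, with WT the lower. Shares of 1 sum depend on each other, and this sum was lower in Mef2dα2 Eko. The levels of Hspb2 and Hspb3 themselves overlapped between the genotypes, and that of Hspb8 was lower in Mef2dα2 Eko.

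**Figure D3:**
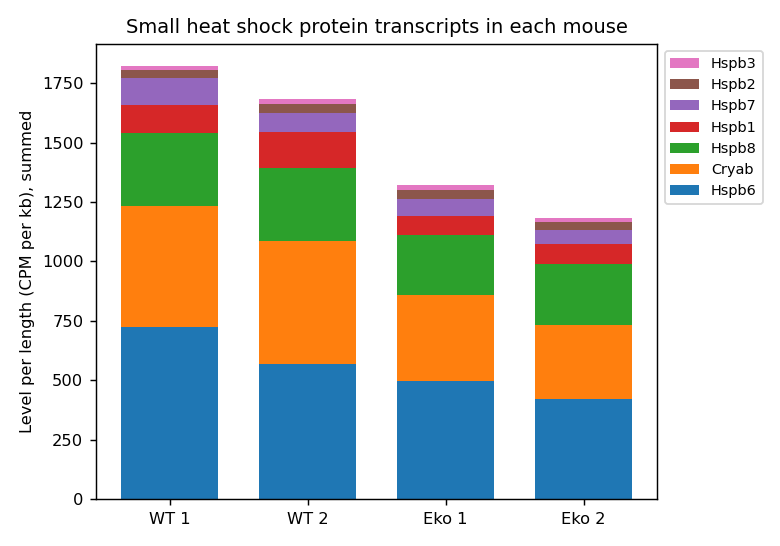
Summed level of the 7 small heat shock protein genes in CPM per kb (y axis, starting at 0) in each of the 4 mice (x axis), stacked by gene. The WT columns reach 1824 and 1683 and the Mef2dα2 Eko columns 1320.0 and 1184, and Hspb6, Cryab and Hspb8 fill most of each.

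Among other genes, the 5 whose centred log2 level over the 4 libraries differed least from that of Bag3 were Wfdc1 (root mean square difference 0.0166), Ubxn2b (0.0198), Ttll1 (0.0225), Psmd8, a subunit of the proteasome's regulatory particle (0.0228), and Tbc1d20 (0.0233). Of the small heat shock protein genes, Hspb8 (0.1104) and Cryab (0.118) came closest to Bag3 and Hspb3 (0.332) was farthest. With 4 libraries this measure mostly orders genes by their difference between the genotypes.

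The other genes of the pathway were taken from 10 lists by function, 102 genes of which 97 were tested. These lists were chosen with earlier results of these data known, so their counts too are a description. By edgeR's quasi-likelihood test 3 passed the adjusted p of 0.05, all lower in Mef2dα2 Eko, and 0 were higher, where 0.310% and 0.105% of all genes passed. Both Mef2dα2 Eko mice lay below both WT mice for 44 of the 97 and above them for 15, beside 23.0% and 20.8% of all genes. Their median log2 fold change was -0.09.

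The 3 called genes all belong to the list of 14 HSP70 chaperones and co-chaperones that work with BAG3. Hsph1, the HSP110 nucleotide exchange factor, fell from 140 ± 1.06 to 92.2 ± 6.15 CPM (SD, n = 2), with a log2 fold change of -0.61 (standard error 0.07) and an edgeR adjusted p of 0.0424. Hspa4l, a second HSP110 gene, fell from 15.2 ± 1.25 to 8.48 ± 0.785 CPM, with a log2 fold change of -0.84 (standard error 0.11) and an edgeR adjusted p of 0.0463. Hspa1l, an HSP70 gene, fell from 45.5 ± 1.21 to 31.6 ± 1.42 CPM, with a log2 fold change of -0.53 (standard error 0.07) and an edgeR adjusted p of 0.0481, and its exons share 1778 bp with those of Gm10501 on the other strand. In each of these genes the higher Mef2dα2 Eko mouse stood below the lower WT mouse. Hsph1 was called in each of the 11 alternative fits and the 4 fits without 1 mouse, and Hspa4l in all of these but the filter at 1 CPM. The call of Hspa1l was lost with RLE normalization, the 1 CPM filter, the GC offset and the length offset, and without Mef2dα2 Eko replicate 2.

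The remaining 11 genes of that list did not pass. Hspa8, the constitutive HSP70 and the most abundant of them, had 1132 and 1175 CPM in WT and 878 and 991 CPM in Mef2dα2 Eko (log2 fold change -0.30, edgeR adjusted p 0.262). The inducible pair Hspa1a and Hspa1b, near-identical genes whose reads the count could have divided either way, summed to 42.7 and 169 CPM in WT and 11.0 and 21.03 CPM in Mef2dα2 Eko. These groups did not overlap, but the WT mice differed from each other by more than the nearest WT and Mef2dα2 Eko mice, and neither gene passed (log2 fold changes -2.61 and -2.89, edgeR adjusted p 0.178 and 0.204). Both were called with no filter on low counts, the likelihood ratio test, and the replicate block with or without the GC offset. No other alternative fit to all 4 mice called either. Dnajb5, a J-domain protein, was at 197 ± 10.2 and 218 ± 22.9 CPM with overlap. The list's median was -0.42, with 12 of 14 genes below 0 (51.3% of all genes) and 8 whose genotypes were apart with Mef2dα2 Eko lower (23.0% of all genes).

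A list of 12 other targets of heat shock factor 1 had 12 of 12 log2 fold changes below 0 (51.3% of all genes), 11 with both Mef2dα2 Eko mice below both WT mice (23.0% of all genes), and a median of -0.23. In this list 0 genes passed edgeR's adjusted p, 8 had an unadjusted p under 0.05 (beside 11.6% of all genes), and DESeq2 called 2 (1.97% of all genes), Hspe1 and Stip1, which are named after their values were seen. Hsp90aa1, the inducible HSP90, had 65.5 and 126 CPM in WT and 43.6 and 53.1 CPM in Mef2dα2 Eko (log2 fold change -0.99, edgeR adjusted p 0.262), again with WT replicate 2 the highest. Serpinh1, the collagen chaperone, was at -0.52 (edgeR adjusted p 0.302). The constitutive Hsp90ab1 was at 1217 and 1128 CPM on average and overlapped, Hspd1, the mitochondrial HSP60, was at 184 and 162 CPM, and Fkbp4 was at 108 and 93.7 CPM. Of 4 tested heat shock factors and regulators 0 passed, and Hsf1 itself was at 32.1 ± 0.2997 CPM in WT and 27.3 ± 0.596 CPM in Mef2dα2 Eko (log2 fold change -0.23, edgeR adjusted p 0.283) while Hsf2 was at 0.01, Hsbp1 at -0.10 and Hsf4 at 0.05 on the log2 scale.

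**Figure D4:**
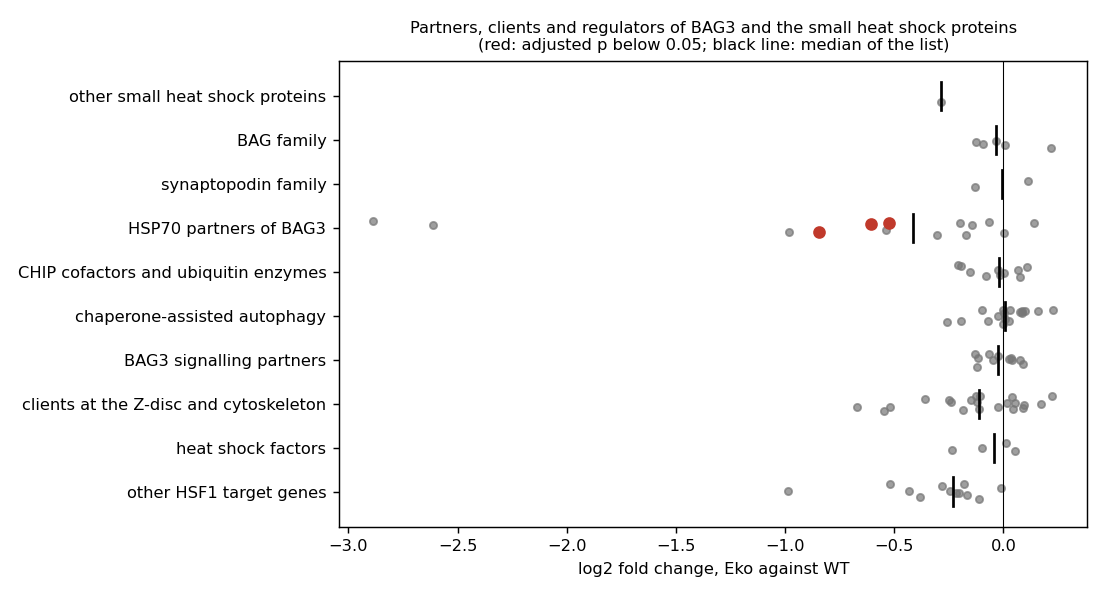
Log2 fold change of Mef2dα2 Eko against WT (x axis) for the tested genes of the 10 related lists (y axis), with 1 point per gene, red where the edgeR adjusted p was under 0.05, and a black line at each list's median. The 3 red points, Hspa4l, Hsph1 and Hspa1l, are all HSP70 partners, and the medians of the HSP70 partners and of the other heat shock factor targets are -0.42 and -0.23 while those of the BAG family, CHIP cofactors, autophagy and signalling lists lie between -0.03 and 0.01.

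Among the relatives of the members, none of the 5 other tested BAG genes passed edgeR's threshold (0 at an unadjusted p under 0.05 and 0 by DESeq2), with Bag6 at 147 and 144 CPM, Bag1 at 82.6 and 83.1 CPM, Bag2 at -0.12 and Bag4 at 0.22 on the log2 scale. Of the synaptopodin family, Synpo was at 259.8 and 238 CPM and Synpo2l at 291 and 314 CPM, and neither passed. Of the 4 other small heat shock protein genes, Hspb11 was tested, at 0.960 and 0.785 CPM with overlap, and Cryaa, Hspb9 and Odf1 did not pass the filter on low counts.

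The steps that follow the chaperones were likewise without a call by edgeR's adjusted p. Over all genes, 11.6% had an unadjusted p under 0.05. Of 10 CHIP cofactors and ubiquitin enzymes, 0 passed edgeR's threshold (1 at an unadjusted p under 0.05, 0 by DESeq2), and the ubiquitin-conjugating enzymes Ube2d3 (286 and 300.0 CPM) and Ube2d1 (179 and 177 CPM) were the most abundant, with Ube2v1 at -0.21 and St13, the HSP70-interacting protein, at -0.19 on the log2 scale. Of 17 genes of chaperone-assisted autophagy, 0 passed (3 at an unadjusted p under 0.05, 0 by DESeq2), and their median was 0.01. Both Mef2dα2 Eko mice were lower for 4 of them and higher for 6, beside 23.0% and 20.8% of all genes. The cargo receptor Sqstm1 had 468 ± 16.4 and 477 ± 47.1 CPM, Map1lc3b, which coats the autophagosome, 122 and 131 CPM, the kinase Ulk1 105 and 88.1 CPM, and the lysosomal regulator Tfeb 57.9 and 67.8 CPM. Of 11 signalling partners of BAG3, 0 passed (0 at an unadjusted p under 0.05, 0 by DESeq2), with Amotl1 at 923 and 848 CPM, Ywhag at 362 and 355 CPM, Capzb at 192 and 186 CPM, and Yap1 at -0.13 on the log2 scale.

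The last list held 21 clients and neighbours of the complex at the Z-disc and in the cytoskeleton. Of these 0 passed edgeR's threshold, 4 had an unadjusted p under 0.05 (11.6% of all genes), and DESeq2 called 3 (1.97% of all genes), Actn2, Myoz2 and Dmpk, the first and last of which are named after their values were seen. Myoz2, the calsarcin of slow fibres, had 39.3 and 39.7 CPM in WT and 28.7 and 21.03 CPM in Mef2dα2 Eko (log2 fold change -0.67, edgeR adjusted p 0.154). Csrp3, the muscle LIM protein, was at 10.8 ± 1.65 and 7.35 ± 3.34 CPM and overlapped. Of the 21 genes, 13 had a log2 fold change below 0 (51.3% of all genes), 11 had both Mef2dα2 Eko mice lower and 2 higher (23.0% and 20.8% of all genes), and the median was -0.11. The 3 most abundant clients had positive values, with titin (Ttn) at 20019 ± 1710 and 23357 ± 1231 CPM, Actn3 at 5998 ± 204 and 6749 ± 362 CPM, and Xirp2 at 5300 ± 199 and 5445 ± 546 CPM, and none of the 3 passed.

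With 2 mice per genotype, a two-sided exact permutation test of a single gene cannot give a p below 0.333, so the adjusted p-values above rest on the spread that edgeR shares across genes.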

How the data were processed

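PolyA RNA of quadriceps from 2 WT and 2 Mef2dα2 Eko mice was sequenced with a stranded kit, 1 library per mouse, and libraries were grouped by the labels. Per the paper's methods, the authors aligned reads to mm10 and estimated the deposited expected counts per gene with RSEM and an Ensembl GRCm38 annotation. The submitters' processing notes name STAR 2.6.1a, and the strand setting is not given in the sources used here. All values were whole, so rounding changed 0. The table has 51826 rows, of which 91 symbols stand on more than 1 row.

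Counts were fitted in R 4.3.3 with edgeR 4.0.16 (quasi-likelihood test, genotype as the sole term, TMM, default low-count filter, prior count 0.125), which tested 16120 genes with Benjamini-Hochberg adjustment at 0.05. Standard errors came from the log2 fold change and F statistic. CPM per kb used the GENCODE M21 transcript with the longest coding sequence and, among equals, the longest transcript. Libraries differed by more than counting error (chi-square per degree of freedom 38.7 to 231).

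Alternatives were DESeq2 1.42.0, RLE and upper-quartile normalization, other filters, the likelihood ratio test, limma-voom (limma 3.58.1), GC and length offsets (lowess, span 0.3), a replicate block, and leaving out each mouse. The fits were tested on simulated data. The 10 members, the related lists and the marker lists were chosen with earlier results of these data known. Named genes are the members, Mef2d, marker lists, the 5 genes most like Bag3, and in each related list the called genes, the 3 most abundant and the 2 with the largest log2 fold change. Other marker sums were, in CPM over the 4 libraries, 415 to 964 for slow fibres, 104 to 121 for smooth muscle, 123 to 142 for endothelium and 276 to 355 for fibroblasts. The nerve and Schwann cell markers summed to 23.6 and 26.6 CPM in WT and 29.2 and 35.7 CPM in Mef2dα2 Eko. Of these 5 genes, 0 had a log2 fold change below 0 and 0 passed edgeR's threshold.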

Additional observations from a re-analysis of the deposited data

How the results depend on the processing

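Bag3, Cryab, Hspb1, Hspb6, Hspb7 and Hspb8 had a negative and Hspb3 a positive log2 fold change in all 11 alternative fits and all 4 fits that left out a mouse. Of the 10 genes, edgeR called 1 (Bag3). With RLE normalization, at least 1 CPM in 2 libraries, GC offset or length offset 0 were called (the cause was not tested), with limma-voom 2, the likelihood ratio test 3, DESeq2 5 and no filter on low counts 6. Over all genes the 67 calls became 23 with the 1 CPM filter, 799 with no filter, 318 with DESeq2 and 312 with the likelihood ratio test. The 3 calls among related genes became 1, 17, 8 and 11 in the same settings. The median log2 fold change of the 10 genes moved from -0.38 to -0.34 with the GC offset, the length offset, and the replicate block with GC offset.

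The replicate numbers name different mice, and with 2 pairs whose deviations correlated at 0.0909 they were taken as numbers alone. With the replicate block, 5 of the 10 genes, 10 related genes and 186 of all genes were called, and with the block and GC offset 5, 11 and 215. Signs turned for Hspb2 (GC offset 0.0211, length offset 0.0111, block with GC offset 0.0229), Stub1 (0.0558, 0.0021 and 0.0560) and Synpo2 (0.0442 without WT replicate 1 and 0.0151 without Mef2dα2 Eko replicate 1, in a range of -0.105 to 0.0442). Leaving out each mouse gave 99 to 299 calls over all genes, 2 to 5 of the 10 genes, 4 to 8 related genes, and medians of -0.35 to -0.29. Without WT replicate 1 the calls over all genes were fewest and the median was -0.29, but the related genes called were the most. Without WT replicate 2 the calls over all genes and over the members were the most. Bag3 was called without WT replicate 2 or Mef2dα2 Eko replicate 2 only. A lone mouse was assumed to vary like the others. Depth did not limit the 10 genes, all far above 3 counts per library.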
